A study of Drosophila melanogaster with 12 samples.

Results

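InR, chico, Akt1, foxo, Tor, S6k and Thor are 7 core genes of the Drosophila insulin and TOR pathway, taken by name from the 15998 genes of the count tables. Their nascent transcription was followed in 8 S2 cell libraries, 2 from the parental S2 line and 2 from each of 3 clones mutant for upSET, the fly homolog of yeast Set3. S2 cells are a male, polyploid, hemocyte-like line from embryos, and all 4 lines carry that background without any further treatment. The lesions, made with Cas9, differ between the clones. In G3 translation loses its normal start, since the 67 bp missing there include the ATG and 10 bp of coding sequence behind it. The reading frame is broken near the same target in A7, by losses of 7 bp, and much further along in B2, where 1 bp is gone and 367 residues of normal UpSET precede the break. Each mutant line is a single clone, so an effect of upSET and a property of the clone cannot be told apart. No source used here says that the 2 libraries of a line came from separate cultures, and the p-values therefore measure only the spread between these libraries, which may be technical.

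Insulin-like peptides bind the receptor InR, which acts through its substrate chico and the lipid kinase PI3K to activate the kinase Akt1. Akt1 keeps the transcription factor foxo out of the nucleus and relieves the block that the Tsc1 and gig proteins place on Tor. Tor kinase also reads amino acids and energy, and promotes growth by phosphorylating the kinase S6k and the translation inhibitor Thor, the fly 4E-BP. Thor and InR are themselves known targets of foxo in flies, so the transcription of these genes is a common readout of the pathway.

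Sense totals ran from 4738785 to 10902304 counts per library, and the 4 libraries of replicate 2 (4738785 to 5427807) were all shallower than those of replicate 1 (8333319 to 10902304). The mutated gene itself, listed as CG9007, had normalised levels of 544 and 567 CPM (sense counts relative to the TMM-scaled library total) in S2, 464 and 461 in G3, 761 and 606 in A7, with 665 and 680 in B2, and the small deletions leave nearly all of the counted gene in place, so this is no check of the labels. The hemocyte markers srp (927 to 1143 CPM) and Pvr (668 to 834 CPM) were high in every library, and the 9 hemocyte markers together gave 2451 to 3429 CPM. Between libraries Pxn ranged from 228 to 808 CPM, vkg from 18.0 to 516, Cg25C from 8.29 to 424, crq from 36.3 to 83.6, eater from 8.14 to 24.9 and Hml from 0.88 to 30.5 CPM, and He did not exceed 0.189 CPM. Summed neuronal markers reached 53.1 to 78.0 CPM, muscle markers 20.5 to 87.1 CPM, germline markers 1.06 to 5.21 CPM and fat body markers 0 to 1.28 CPM, and their part in the results was not tested.

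All 7 genes passed the filter on low counts, at least 1 CPM in at least 2 libraries, as did 9612 genes in all. Per kilobase of the gene's extent, S6k was the most transcribed, at 52.2 CPM per kb on average over the 8 libraries, followed by InR (29.7), Tor (18.6), Akt1 (16.8), Thor (14.3), foxo (13.0) and chico (10.2 CPM per kb). Each lay above the median of all tested genes, 7.56 CPM per kb, from percentile 60.8 for chico to percentile 94.7 for S6k. The place of S6k above InR held in 8 of 8 libraries and that of InR above Tor in 7, the exception being S2 replicate 2. Tor lay above Akt1 in 7 of 8 libraries and Akt1 above Thor in 6, the exceptions for the latter pair being both A7 libraries. Thor lay above foxo in 4 of 8, namely both G3 and both A7 libraries, and below it in both S2 and both B2 libraries. Between foxo and chico, foxo was the higher in 5 of 8. The lower part of the order was thus not fixed across libraries and lines. These levels divide by the whole extent, and whether introns were counted is not given, so the order may depend on it.

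**Figure D1:**
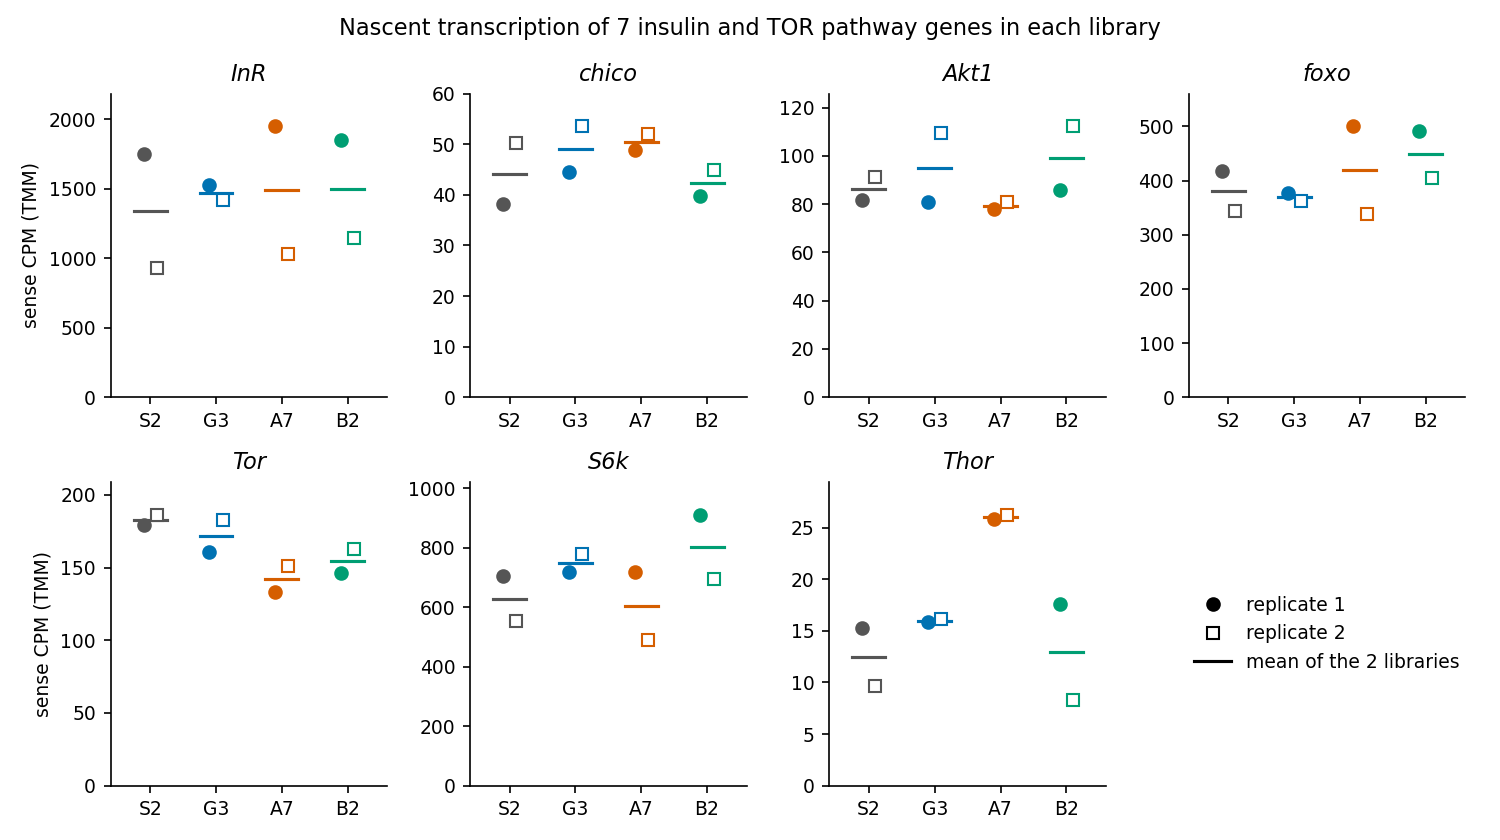
Sense CPM (TMM-scaled, each vertical axis from 0) of the 7 genes by cell line, parental S2 first and then the clones, with filled circles for replicate 1, open squares for replicate 2 and a bar at the mean of the 2 libraries. Both A7 libraries lie above all others for Thor (25.9 and 26.3 CPM) and InR is lower in replicate 2 than in replicate 1 of every line.

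None of the 7 genes passed an adjusted p of 0.05 in any comparison between lines (edgeR's quasi-likelihood test, Benjamini-Hochberg over 9612 genes). The test called 0.603% of all genes for G3 against S2, 0.375% for A7, 0.0104% for B2 and 0.156% for the mean of the mutants. Between mutant lines it called 0.208% for G3 against A7, 0.239% for G3 against B2 and 0.291% for A7 against B2. At an unadjusted p under 0.05, 0 of the 7 genes were reached for G3, 2 (Thor and Tor) for A7 and 0 for B2, where 11.1%, 8.75% and 3.25% of all tested genes were. DESeq2 called 0 of the 7 in each line at its adjusted p. Of the 9612 genes it called 200 for G3, 162 for A7 and 38 for B2. Same-numbered libraries of different lines deviated together, so the comparisons were also fitted with the replicate number as a block. That fit called 5.87% of all genes for G3 against S2, 3.67% for A7, 0.427% for B2, 1.99% for the mean of the mutants, 2.99% for G3 against A7, 3.85% for G3 against B2 and 3.90% for A7 against B2, and again 0 of the 7. At its unadjusted p under 0.05, 0 of the 7 genes were reached for G3, 2 (Thor and Tor) for A7 and 2 (Tor and S6k) for B2, where 21.0%, 18.5% and 9.82% of all tested genes were. The 7 genes had a median log2 fold change of 0.14 for G3, 0.14 for A7 and 0.16 for B2, beside -0.06, -0.05 and -0.03 over all tested genes. The libraries of a mutant lay wholly outside the S2 range for 2 of the 7 genes in G3, 3 in A7 and 1 in B2, where 38.1%, 36.2% and 26.3% of all tested genes did so. In these bulk libraries, fewer cells transcribing a gene and less nascent RNA per cell cannot be told apart.

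InR, the insulin receptor (3R:17396206-17445025 in dm3, an extent of 48.8 kb), gave 1751 and 931 CPM in S2, 1526 and 1418 in G3, 1950 and 1033 in A7, with 1846 and 1146 in B2, replicate 1 first. The lines overlapped fully, and within S2, A7 and B2 the replicates lay further apart than any pair of line means. Its log2 fold change came to 0.13 for G3, 0.15 for A7 and 0.16 for B2, each with an SE of 0.40, and the 95% interval for G3 ran from -0.80 to 1.07. With the block the SE fell to 0.18 and the G3 interval narrowed to -0.18 to 0.63. The extent of InR also holds the annotated genes CR43653 (2503 bp of overlap, 91 sense and 3644 antisense counts in all) and mgn00178 (847 bp, 2531 sense counts), and their reads may be counted in InR as well.

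chico, the insulin receptor substrate (2L:10242512-10247057), was the least transcribed of the 7 genes per kb. It had 38.1 and 50.3 CPM in S2, 44.6 and 53.6 in G3, 48.9 and 52.0 in A7, with 39.9 and 45.0 in B2. All 3 mutant ranges overlapped that of S2, and replicate 2 was the higher library in every line. The log2 fold changes came to 0.15 for G3, 0.19 for A7 and -0.06 for B2, with an SE of 0.18 in each, and the A7 interval ran from -0.23 to 0.61. Fitting the block lowered each SE to 0.12.

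Akt1, the kinase at the centre of the insulin branch (3R:11924888-11930237), gave 81.7 and 91.2 CPM in S2, 80.9 and 109 in G3, 77.8 and 80.8 in A7, with 86.0 and 112 in B2. Both A7 libraries lay just under the lower S2 library, whereas G3 and B2 overlapped S2. The log2 fold change came to 0.14 for G3, -0.12 for A7 and 0.20 for B2, each with an SE of 0.20. A7 and B2 themselves differed by -0.32 ± 0.20 (SE, n = 2 libraries each), which did not pass the edgeR test (adjusted p = 0.789). With the block this difference was -0.30 ± 0.13 and did not pass either (edgeR adjusted p = 0.289).

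foxo, the transcription factor that Akt1 restrains (3R:9882645-9913700, an extent of 31.1 kb), had 418 and 343 CPM in S2, 377 and 362 in G3, 501 and 338 in A7, with 491 and 406 in B2. Replicate 1 was the higher library in every line. Each mutant overlapped S2, while both B2 libraries lay above both G3 libraries. Its log2 fold change came to -0.04 for G3, 0.14 for A7 and 0.24 for B2, each with an SE of 0.21. Fitting the block lowered each SE to 0.13.

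Tor, the growth kinase listed as mTor in newer annotation (2L:13004461-13013201), gave 179 and 187 CPM in S2, 161 and 183 in G3, 133 and 151 in A7, with 146 and 163 in B2. Both A7 and both B2 libraries were below both S2 libraries, and G3 overlapped S2. The log2 fold change came to -0.09 for G3, -0.36 for A7 and -0.24 for B2, with an SE of 0.14 in each. For A7 the unadjusted 95% interval ran from -0.69 to -0.04 and the edgeR adjusted p was 0.507, or 0.095 with the block. The mean of the mutants differed from S2 by -0.23 ± 0.11 (SE), with an adjusted p of 0.677 (edgeR) and 0.179 with the block. Tor was below same-numbered S2 in 6 of 6 mutant libraries, a direction that fell short of the threshold in each comparison. These 6 ratios reused the same S2 libraries and are not independent, and that of G3 replicate 2 was only -0.03 (log2). How many of all tested genes kept 1 direction in this way was not counted.

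S6k, the Tor-activated kinase that phosphorylates ribosomal protein S6 (3L:5790759-5804085), gave 704 and 552 CPM in S2, 717 and 779 in G3, 717 and 491 in A7, with 911 and 694 in B2. Both G3 libraries lay above S2 while A7 and B2 overlapped it. The log2 fold change came to 0.25 for G3, -0.06 for A7 and 0.35 for B2, each with an SE of 0.23, or 0.15 with the block. The difference of A7 from B2, -0.41 ± 0.23, did not pass either (edgeR adjusted p = 0.741, or 0.196 with the block). S6k shares 3591 bp with CG42272, which held 28 sense and 12972 antisense counts in all, and 415 bp with CG5537, so some of these reads may be counted in more than 1 gene.

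Thor, the 4E-BP that Tor inactivates (2L:3478429-3479612), was the shortest of the 7 genes and the one with the fewest counts. It had 132 and 55 sense counts in S2, 161 and 83 in G3, 274 and 134 in A7, with 149 and 39 in B2. After normalisation these were 15.3 and 9.70 CPM in S2, 15.8 and 16.1 in G3, 25.9 and 26.3 in A7, with 17.6 and 8.35 in B2. The A7 libraries were the highest of all 8 and nearly equal, and G3 lay just above the S2 range while B2 spanned it. The A7 mean of 26.1 ± 0.286 CPM stood against 12.5 ± 3.96 CPM in S2 (SD, n = 2), a log2 fold change of 1.04 ± 0.34 (SE) with an unadjusted 95% interval of 0.24 to 1.85. This was the largest change of the 7 genes in any line, yet its adjusted p was 0.418 by edgeR and 0.0621 with the block, and from 0.0621 to 0.84 over all alternatives. A7 exceeded B2 by 0.97 ± 0.34 on the log2 scale (edgeR adjusted p = 0.448, or 0.0777 with the block). G3 and B2 differed from S2 by 0.34 ± 0.35 and 0.07 ± 0.35. Fitting the block lowered the SE against S2 to 0.25 for A7, 0.26 for G3 and 0.27 for B2.

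**Figure D2:**
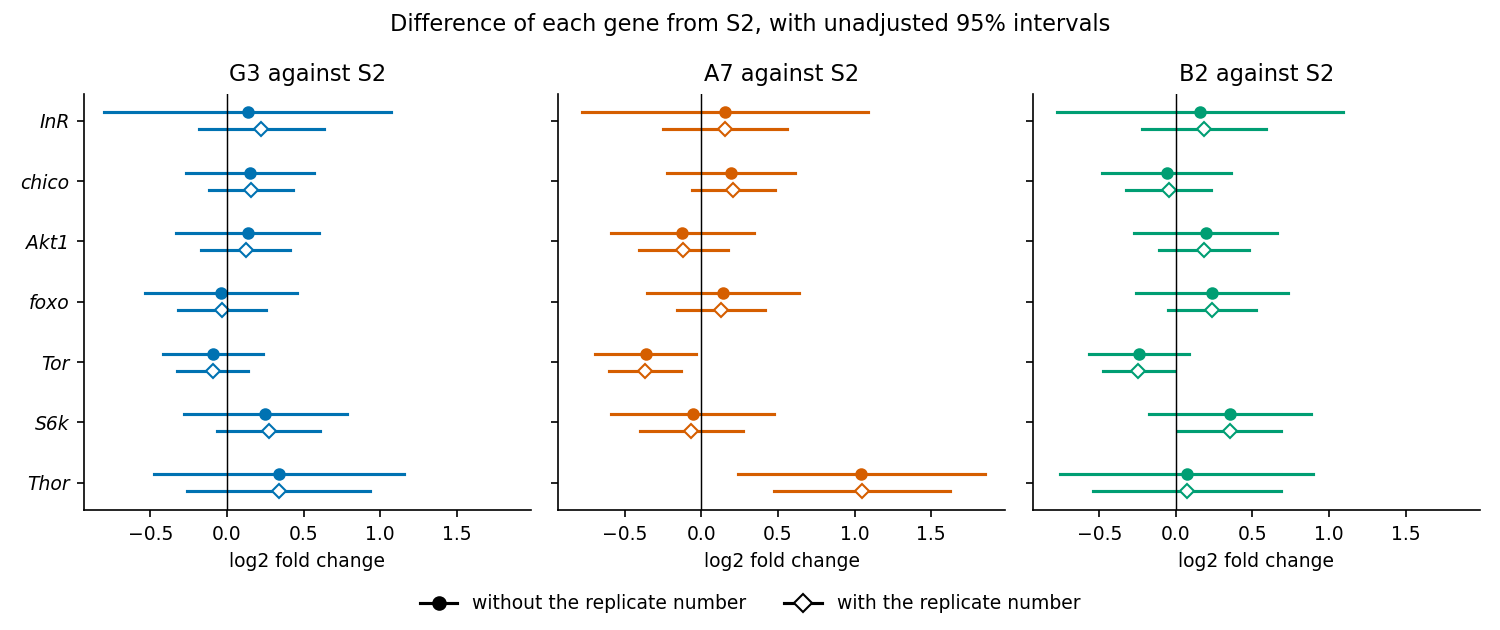
Log2 fold change of each gene in G3, A7 and B2 against S2 (horizontal axis), with bars for unadjusted 95% intervals. Filled circles come from the edgeR fit without the replicate number and open diamonds from the fit with it. Without the replicate number, the intervals of Thor (0.24 to 1.85) and Tor (-0.69 to -0.04) in A7 leave out 0 before adjustment. With it, those of Thor and Tor in A7 and of Tor (-0.48 to -0.01) and S6k (0.02 to 0.69) in B2 do so. No gene passed after adjustment in either fit.

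The replicate number moved 1 of the 7 genes past the threshold. InR was lower in replicate 2 of every line, with a log2 fold change of -0.66 ± 0.13 (SE) and an adjusted p of 0.0114 (edgeR, replicate as a term beside the line, 4 libraries against 4). The step was smallest in G3 (1526 to 1418 CPM), and the call was lost without B2 replicate 1 or 2 (adjusted p = 0.0657 and 0.0659) and held without each other library. In the same comparison 17.5% of all tested genes were called, 706 higher and 973 lower. foxo (-0.30, adjusted p = 0.0519), S6k (-0.29, adjusted p = 0.0842) and Thor (-0.36, adjusted p = 0.207) had negative values, and chico (0.23, adjusted p = 0.0907), Akt1 (0.26, adjusted p = 0.0794) and Tor (0.14, adjusted p = 0.198) positive ones. Replicate 2 was also the shallower series. The replicate difference varied with gene extent. Over all tested genes the median log2 fold change was 0.06 for the 3524 genes of up to 2 kb, -0.14 for the 827 genes of 10 to 20 kb and -0.39 for the 948 genes over 20 kb. Spearman's rho between extent and this fold change was -0.24 across the 9612 genes, which are not independent replicates. InR and foxo are the 2 members over 20 kb. The part of depth and of gene extent in the fall of InR was not tested.

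foxo had the highest antisense share of the 7 genes over all libraries, and most of its antisense counts came from replicate 1. There its antisense share was 7.85% for S2 (307 counts), 14.3% for G3 (638), 4.09% for A7 (226) and 5.98% for B2 (265). In replicate 2 it was 1.22% for S2 (24 counts), 1.79% for G3 (34), 2.05% for A7 (36) and 0.577% for B2 (11). Every replicate 1 library thus exceeded every replicate 2 library, and the exact Clopper-Pearson 95% intervals, which cover counting error only, did not meet: the lowest of replicate 1 began at 3.58% and the highest of replicate 2 ended at 2.83%. Antisense counts of foxo were lower in replicate 2 by a log2 fold change of -2.49 ± 0.23 (SE, edgeR adjusted p = 8.14e-25), and those of InR by -1.05 ± 0.25 (adjusted p = 0.000755). The foxo call held without each library in turn (log2 -2.89 to -2.26), whereas that of InR was lost without S2 replicate 1 (-0.62, adjusted p = 0.118) or S2 replicate 2 (-0.59, adjusted p = 0.135). This comparison was added after the antisense counts had been seen, and it called 2 of the 7 genes where 15.8% of 12610 genes were called and the median of all genes was -0.45. No other listed gene overlaps foxo. The antisense share of whole libraries also moved, from 10.2 to 11.0% in replicate 1 to 8.59 to 9.60% in replicate 2.

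Between lines, 0 of the 7 genes passed in antisense counts, where 0.444% of 12610 genes passed for G3 against S2, 0.293% for A7 and 0.0634% for B2. The foxo antisense log2 fold change of G3 against S2 was 0.85 ± 0.80 (SE), smaller than the step between replicates. Over all libraries the antisense share was 5.96% for foxo, 3.20% for Tor, 3.15% for chico, 0.856% for Akt1, 0.691% for S6k, 0.677% for Thor and 0.640% for InR, beside a median of 5.66% over tested genes. Thor had 0 antisense counts in 6 of 8 libraries, with Clopper-Pearson upper limits from 1.34% to 9.03% of its counts.

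**Figure D3:**
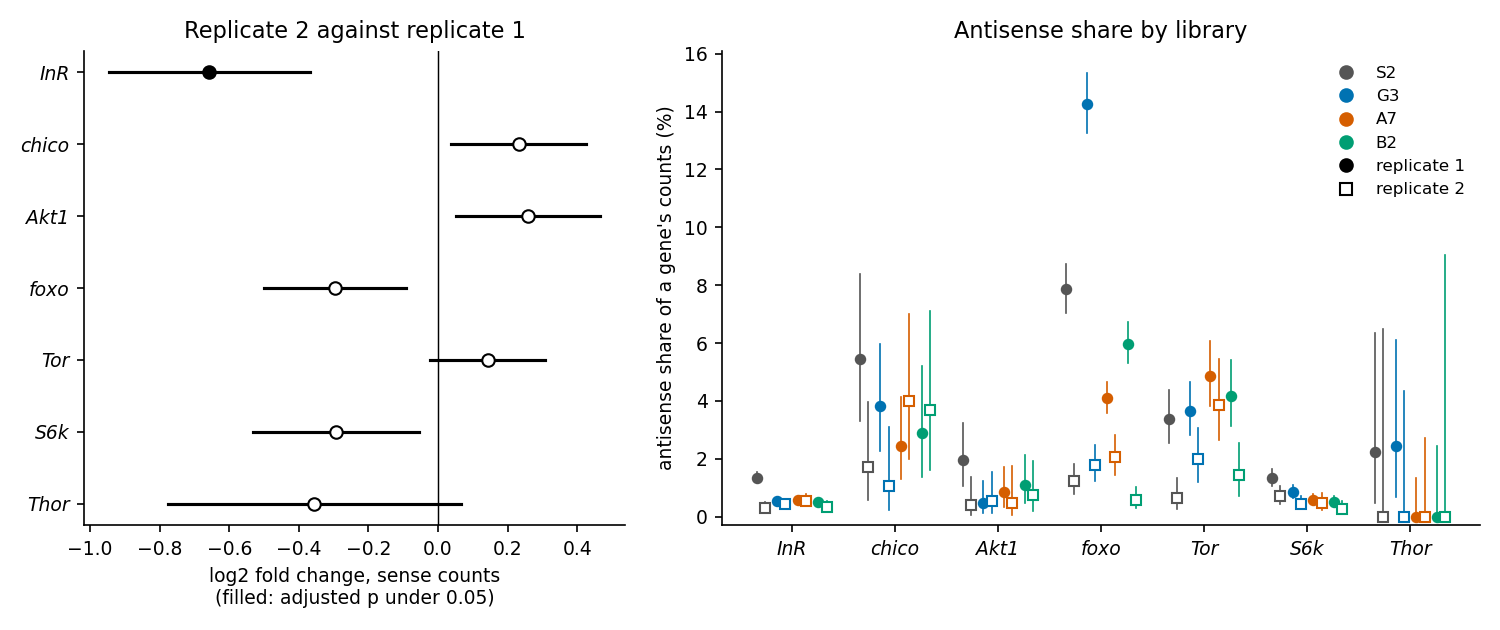
Left, log2 fold change of sense counts in replicate 2 against replicate 1 with 95% intervals, filled where the adjusted p is under 0.05, which holds for InR (-0.66). Right, antisense share of each gene's counts in percent per library with exact Clopper-Pearson 95% intervals, by line (colour) and replicate (filled circles for 1, open squares for 2). The 4 foxo shares of replicate 1 run from 4.09 to 14.3% and those of replicate 2 from 0.577 to 2.05%.

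Across the 8 libraries, log2 levels of InR ran parallel to those of foxo (r = 0.83) and S6k (r = 0.78), and foxo to S6k (r = 0.71), all 3 being higher in replicate 1 of most lines. Values in the opposite sense were of similar size for Akt1 and Thor (r = -0.67), foxo and Tor (r = -0.65), Tor and Thor (r = -0.64), foxo and chico (r = -0.55) and InR and chico (r = -0.54). By Pearson's r over the 8 libraries, which share the replicate difference, the genes most like each member were mgn00178 (0.98, within the extent of InR) and Gap1 (0.98) for InR, CG10584 (0.98) and janB (0.98) for chico, Sps2 (0.99) and NELF-B (0.97) for Akt1, and CG13604 (0.96) and Fkbp13 (0.96) for foxo. They were mgn00285 (0.98) and FucTD (0.96) for Tor, CG13405 (0.98) and CG12483 (0.96) for S6k, and DAAM (0.97) and CG7778 (0.96) for Thor. Each is the closest of 9612 genes over only 8 points, so a high value is a description of these libraries.

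Around the 7 genes, a list of 61 further genes of the pathway was examined, of which 60 were in the tables and 53 passed the filter. In the edgeR fit without the block 0 of the 53 were called in G3, A7 or B2 against S2. It called 0.603%, 0.375% and 0.0104% of all tested genes there. At an unadjusted p under 0.05 that fit reached 9 (17.0%), 7 (13.2%) and 2 (3.77%) of them, where 11.1%, 8.75% and 3.25% of all tested genes were reached. With the block chrb was called in G3 and A7 and mnd in A7, while 0 were called in B2. These were 1.89% of the list in G3 and 3.77% in A7. Of all tested genes, 5.87% were called in G3, 3.67% in A7 and 0.427% in B2. Without the block, DESeq2 and edgeR without a filter also called chrb in G3 (adjusted p = 0.00844 and 0.0126) and mnd in A7 (adjusted p = 0.00577 and 0.00931), and edgeR at CPM of at least 5 called mnd in A7 (adjusted p = 0.0469). Among all genes, DESeq2 called 200 of 9612 in G3 and 162 in A7. Without a filter edgeR called 171 and 156, and at CPM of at least 5 it called 48 in A7. The median log2 fold change of the list came to 0.01 for G3, -0.02 for A7 and 0.04 for B2, beside -0.06, -0.05 and -0.03 over all tested genes.

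Most insulin-like peptide genes were almost silent in these cells. Ilp1, Ilp3, Ilp4, Ilp5 and Ilp7 had at most 2 counts in any library and were not tested, as were the secreted decoy receptor gene Sdr (CG3837) and the FOXO regulator melt, at no more than 0.689 CPM. Ilp2 reached 0.882 to 5.54 CPM. Ilp6, known as a fat body and glial ligand, was the most transcribed, at 55.2 to 83.0 CPM. All 6 mutant libraries of Ilp6 (55.2 to 71.2 CPM) lay below both S2 libraries (72.3 and 83.0 CPM), but the mean difference did not pass (log2 -0.33 ± 0.13, edgeR adjusted p = 0.612, or 0.148 with the block). How many of all tested genes lay outside the S2 range in every mutant library was not counted. The largest difference among the ligands, that of Ilp8 (CG14059), rested on at most 1.39 CPM and came to -0.41 ± 1.26 (log2, mean of the mutants, SE). Among the secreted binders ImpL2, which sequesters insulin-like peptides, gave 295 and 129 CPM in S2, 204 and 200 in G3, 225 and 192 in A7, with 347 and 188 in B2. Every mutant thus overlapped S2. Of the secreted binders conv had the larger mean difference, at 0.14 ± 0.43.

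From the receptor to Akt1, 0 of 8 genes were called in any mutant against S2. Of all tested genes, only 0.0104 to 0.603% were called there without the block and 0.427 to 5.87% with it. The largest mean difference of the 8 genes was that of Pi3K92E, the PI3K catalytic subunit, at -0.21 ± 0.16. Pdk1, the kinase that phosphorylates Akt1, gave 1827 and 971 CPM in S2, 1866 and 1179 in G3, 1677 and 819 in A7, with 2338 and 1275 in B2. It was lower in replicate 2 of every line (log2 -0.87 ± 0.07, edgeR adjusted p = 0.000321) and, with the block, lower in A7 than in B2 (-0.56 ± 0.10, edgeR adjusted p = 0.0238), a difference that did not pass without it (adjusted p = 0.907) or, within it, without A7 replicate 2 (0.113), B2 replicate 1 (0.223) or B2 replicate 2 (0.253). Tsc1, a subunit of the complex that restrains Tor, had the largest mean difference of the 3 TSC and Rheb genes (-0.21 ± 0.11), and Lst8 (CG3004), a Tor partner, that of the 5 Tor complex genes (0.32 ± 0.20), with none called against S2.

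The amino acid branch held mnd, a transporter of the large neutral amino acid family. Its levels were 20.3 and 18.9 CPM in S2, 24.9 and 28.9 in G3, 43.6 and 38.2 in A7, with 25.1 and 21.2 in B2. Both A7 libraries stood well above all others. In A7 against S2 the log2 fold change was 1.06 ± 0.16 (SE, edgeR adjusted p = 0.057), and it passed with the block (1.07 ± 0.15, adjusted p = 0.00569), a call that without A7 replicate 1 came to an adjusted p of 0.06 (edgeR). A7 also exceeded B2 with the block (0.82 ± 0.15, edgeR adjusted p = 0.0189), but not without it (adjusted p = 0.126) or when any A7 or B2 library was left out (adjusted p = 0.0554 to 0.19). path, another amino acid transporter that acts on growth in flies, gave 42.7 and 41.3 CPM in S2, 34.7 and 40.2 in G3, 63.6 and 56.1 in A7, with 40.8 and 31.9 in B2. It too was highest in A7, and with the block it differed between G3 and A7 (-0.69 ± 0.14, edgeR adjusted p = 0.0419) and between A7 and B2 (0.71 ± 0.14, adjusted p = 0.0313), while A7 against S2 did not pass (0.51, adjusted p = 0.0933) and none of these passed without the block. The first of these calls remained past the threshold only without G3 replicate 2 (adjusted p = 0.0416), and lay between 0.0516 and 0.251 without each other library. The second was lost without any A7 or B2 library (edgeR adjusted p = 0.0907 to 0.281). Nprl3 (CG8783), a subunit of the GATOR1 inhibitor of Tor, was lower in all mutants, at 16.5 and 16.2 CPM in S2, 7.18 and 11.9 in G3, 10.5 and 8.43 in A7, with 12.5 and 13.5 in B2. No mutant library reached the S2 range, but the difference did not pass for the mean of the mutants (-0.64 ± 0.20, edgeR adjusted p = 0.525, or 0.123 with the block). The share of all tested genes with such a pattern was not counted. Nprl3 ends at 13994999 on 3L, right before the mutated upSET gene, which begins at 13995223. The part of this position in the lower level was not tested.

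Of the 4 energy and stress genes, chrb, a REDD1 homolog that restrains Tor in hypoxia and starvation, had 20.9 and 18.4 CPM in S2, 44.9 and 45.9 in G3, 29.7 and 49.0 in A7, with 27.5 and 33.8 in B2. All 6 mutant libraries exceeded both S2 libraries. Line by line, 38.1% of all tested genes lay outside the S2 range in G3, 36.2% in A7 and 26.3% in B2. How many did so in every mutant at once was not counted. For chrb, G3 differed by 1.21 ± 0.25 on the log2 scale, A7 by 0.99 ± 0.25 and B2 by 0.64 ± 0.25 (SE). The edgeR adjusted p was 0.116, 0.250 and 0.999. With the block chrb passed in G3 (adjusted p = 0.0128), in A7 (0.94, adjusted p = 0.0419) and for the mean of the mutants (0.92, adjusted p = 0.0382), but not in B2 (0.61, adjusted p = 0.392). The G3 call was lost without S2 replicate 2 (0.98, adjusted p = 0.0737) or G3 replicate 1 (1.04, adjusted p = 0.0732). The A7 call was lost without S2 replicate 1 (0.0506), S2 replicate 2 (0.17), A7 replicate 2 (0.164), B2 replicate 1 (0.0965) or B2 replicate 2 (0.0924), values that are edgeR adjusted p. That of the mean was lost without either S2 library (0.0717 and 0.165), either B2 library (0.135 and 0.116) or G3 replicate 1 (0.0512). The difference of G3 from B2 did not pass (0.58, edgeR adjusted p = 0.161 with the block). Its paralog scyl overlapped S2 in every line, at 116 to 187 CPM over all libraries. The AMPK catalytic subunit gene SNF1A and its activator lkb1 had negative values, of which none passed. SNF1A lay below both S2 libraries (30.9 and 32.1 CPM) in all 6 mutant libraries (18.3 to 28.0 CPM), with a mean log2 difference of -0.35 ± 0.14 (edgeR adjusted p = 0.626, or 0.171 with the block). lkb1 was below S2 in both G3 and both A7 libraries and overlapped it in B2, with a mean difference of -0.38 ± 0.12 (edgeR adjusted p = 0.525, or 0.15 with the block). The shares of all tested genes with the pattern of SNF1A or of lkb1 were not counted either.

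Downstream of Tor and around foxo, 0 of 10 and 0 of 5 genes were called in any mutant against S2 in either fit. Of all tested genes, only 0.0104 to 0.603% were called there without the block and 0.427 to 5.87% with it. In these groups the largest mean differences were those of the Tor-controlled transcription factor REPTOR (CG13624), at 0.29 ± 0.15, and of wdb, a PP2A subunit that acts on Akt1, at 0.28 ± 0.10 (log2, SE). In replicate 2 against replicate 1, 4 of the 53 list genes were higher and 7 lower, or 20.8%, which is near the 17.5% of all tested genes called there. The higher ones were RpS6 (0.70), eIF-4E (0.35), REPTOR-BP (CG18619, 0.84) and L, the fly PRAS40 (0.45), and the lower ones were Pdk1 (-0.87), sgg (-0.55), Ptp61F (-0.44), dock (-0.32), Sir2 (-0.29), Ilp2 (-1.57) and Ilp8 (-2.81), the last 2 from very few counts.

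**Figure D4:**
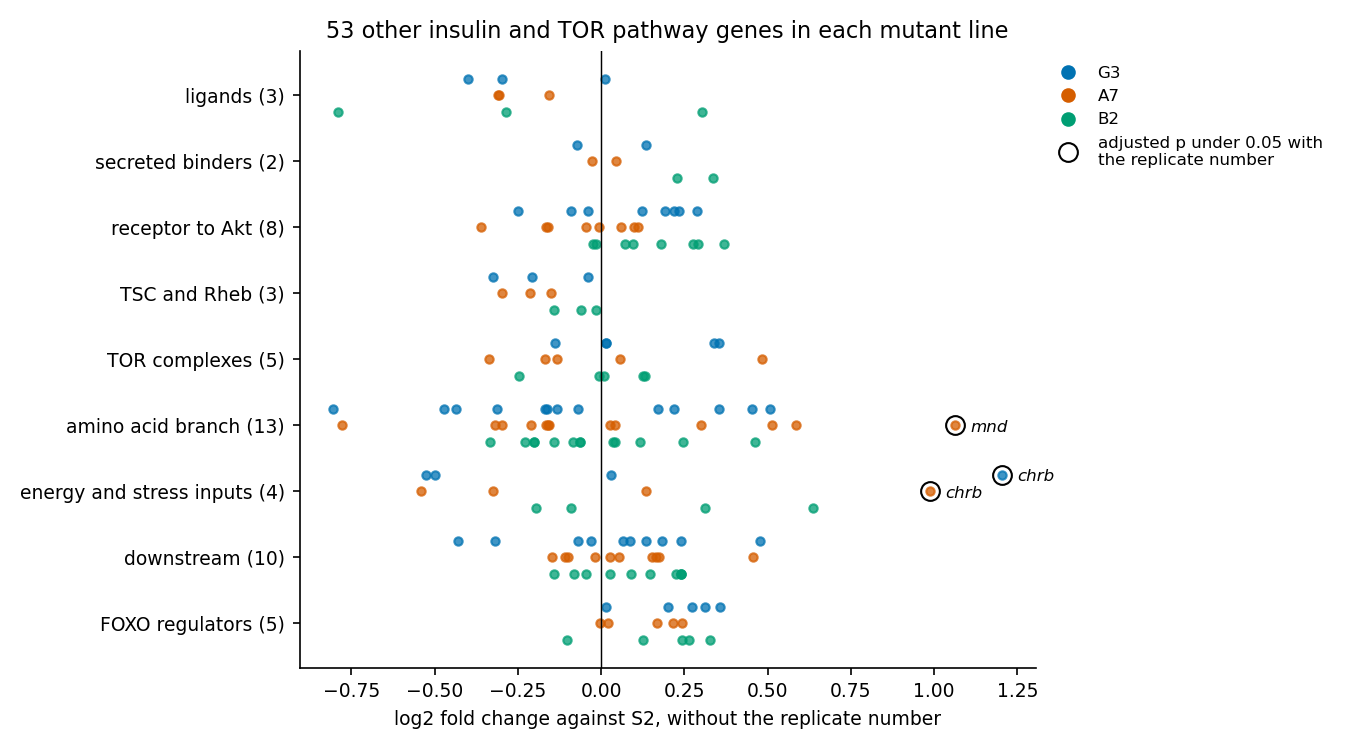
Log2 fold change against S2 (horizontal axis, edgeR fit without the replicate number) of the 53 tested pathway genes in each mutant line, by functional group with the number of genes in brackets. Circled points passed an adjusted p of 0.05 in the fit with the replicate number, namely mnd in A7 (1.06) and chrb in G3 (1.21) and A7 (0.99).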

How the data were processed

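Nascent RNA was extracted with urea from nuclei and made into directional libraries. The authors aligned reads to dm3 and kept unique alignments (Bowtie 0.12.7 and bedtools are named in the submitters' processing notes), and deposited whole-number counts per gene for the sense and antisense strand. Whether introns were counted is not given in the sources used here. The second series has r3 in its column names and was taken as replicate 2, the only other replicate labelled. ChIP samples were not analysed here.

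Counts were TMM-scaled and tested with edgeR 4.0.16 in R 4.3.3 (glmQLFit and glmQLFTest, all 8 libraries, genes with CPM of at least 1 in at least 2 libraries, Benjamini-Hochberg adjustment, threshold 0.05). A run on simulated data was required only to recover the median size of planted fold changes, and its error rates are not given here. Alternatives were DESeq2 1.42.0, library size alone, other filters, a replicate block, 2 lines alone, both strands added and each library left out. A count of 3 equalled 0.283 to 0.642 CPM, depending on the library. Replicate numbers paired the libraries: deviations of same-numbered libraries correlated at 0.50 to 0.64 over all pairs of lines.

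The members and lists were chosen with earlier results of these data known. Named genes were the members, list genes called against S2 in either fit, the largest mean change per group, overlapping genes and the 2 genes most like each member. Other list genes named, and path and Pdk1, were chosen after their values were seen. Synonyms came from RefSeq gene tables. RagC-D and NimC1 were not matched.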

Additional observations from a re-analysis of the deposited data

How the results depend on the processing

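None of the 7 genes was called between lines under any setting, and 22 of their 343 recomputed log2 fold changes changed sign, with 0 called. Leaving out 1 library moved the G3 fold change of InR between -0.23 and 0.67, of chico between -0.0304 and 0.39, of Akt1 between -0.0509 and 0.34 and of foxo between -0.15 and 0.11. For A7 the ranges were -0.38 to 0.69 (InR), -0.17 to 0.40 (foxo) and -0.35 to 0.19 (S6k), and for B2 they were -0.23 to 0.69 (InR), -0.24 to 0.15 (chico), -0.00396 to 0.38 (Akt1) and -0.60 to 0.48 (Thor). Thor in A7 stayed between 0.79 and 1.43 and Tor in A7 between -0.46 and -0.28. With 2 lines alone foxo in G3 gave 0.000193, and with library size alone Thor in B2 gave -0.0318. The last setting also moved the median of all genes to -0.18 for G3, -0.09 for A7 and -0.13 for B2. The replicate block gave InR values of 0.0701 for G3 against A7 and 0.041 for G3 against B2, and it changed no call of the 7 genes.

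Of the pathway list, chrb was called in G3 by DESeq2 (1 gene), without a filter (1) and with the block (1). In A7, mnd was called by DESeq2 (1), without a filter (1) and at CPM of at least 5 (1), and with the block chrb and mnd (2). With the block, 1 list gene (1.89%) was called for the mean of the mutants, 1 (1.89%) for G3 against A7 and 3 (5.66%) for A7 against B2. Of all tested genes, 1.99%, 2.99% and 3.90% were called there. For these comparisons the setting was chosen after seeing the data, as was leaving out libraries in the fit with the block.

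Genes called in all, 58 for G3, 36 for A7 and 1 for B2, came to 200, 162 and 38 with DESeq2, 171, 156 and 32 without a filter, 564, 353 and 41 with the block, and 15, 12 and 0 with 2 lines alone. Library size alone gave 0 in B2, and adding both strands gave 20 in A7. Leaving out 1 library gave 17 to 46 for G3, 12 to 28 for A7 and 0 to 2 for B2. Antisense calls rose with the block to 246, 263 and 191. The cause of these differences was not tested. Depth was lowest for Thor, with 39 sense counts in B2 replicate 2. No alternative gene length was available for levels per kb.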
